A study of Mus musculus with 4 samples.

Results

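The 37 genes described here encode proteins of the lysosome and of autophagy, and all 37 were found by gene symbol among the 32246 genes of the deposited table, with 1 identifier each. They comprise 20 acid hydrolases, 6 membrane proteins and soluble cofactors, 6 subunits of the proton pump, the transcription factors Tfeb and Tfe3, and 3 autophagy genes. Lysosomes are acidic organelles in which hydrolases break down proteins, lipids, glycans and nucleic acids that arrive by endocytosis, phagocytosis or autophagy. A vacuolar proton pump (V-ATPase) keeps the lumen acidic, and TFEB and TFE3 switch on many of these genes together. In the inflamed spinal cord, macrophages and microglia that take up myelin debris are rich in lysosomes, while neurons and glia depend on the same enzymes for turnover of their own constituents.

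The libraries came from mononuclear cells of the spinal cord, enriched on a Percoll gradient. The donors were C57BL/6 mice immunized to develop EAE (experimental autoimmune encephalomyelitis), in which T cells and phagocytes attack myelin and which serves as a mouse model of multiple sclerosis. P155 mice received microPEP155, and Scr mice received a scramble micropeptide. Dosing was on alternate days from day 8 after immunization, and mouse age is not given in the sources used here. There were 2 libraries per group, numbered 4 and 5 in each, with 63862745 and 30777553 recovered reads in P155 replicates 4 and 5 and 63875412 and 64702948 in Scr replicates 4 and 5. microPEP155 is encoded by Mir155hg and is known to bind the chaperone HSC70, which also delivers proteins to the receptor LAMP2A in chaperone-mediated autophagy. The labels are silent on whether each library is 1 mouse or a pool. The p-values therefore reflect only how far these 4 libraries scatter, and that scatter may be technical.

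Levels are log2(normalized reads + 1) as deposited, a difference is P155 minus Scr on that scale, and P155 replicates 4 and 5 are always given in that order, as are Scr replicates 4 and 5. The labelled cell type was only part of what the libraries held. The synaptic gene Snap25, a neuron marker, stood at 17.03 and 16.86 in P155 and at 16.74 and 16.78 in Scr, whereas the pan-leukocyte gene Ptprc stood at 11.87 and 11.33 in P155 and at 11.92 and 12.19 in Scr. Neuron, astrocyte and oligodendrocyte markers were above 0 in all libraries, so the libraries held RNA of neural as well as immune cells. Which cells the lysosomal transcripts came from was not measured. In such bulk samples, fewer cells of a type and less RNA per cell cannot be told apart. Markers of leukocytes were unevenly spread over the libraries, and not all in the same way. All 6 pan-leukocyte genes were highest in Scr replicate 5 and lowest in P155 replicate 5. All 8 neutrophil genes were highest in Scr replicate 4 and lowest in P155 replicate 4.

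Promoters of the lysosomal genes are shown first, because TFEB and TFE3 bind the palindrome CACGTG in promoters of the lysosomal gene network. The RefSeq (GRCm38.p6) promoters used here covered 33 of the 37 genes. Atp6v0d2, Atp6v1b2, Atp6v1h and Asah1 had no window among them and were not searched. The windows searched ran from 250 bases before the annotated start to 20 bases after it, and each palindrome reads the same on both strands. CACGTG was present for 9 of 33 genes (27.3%), against 7.45% of 27025 genes with a promoter. The longer form TCACGTGA, which contains CACGTG, was present for 4 of 33 (12.1%), against 1.04% of all. The motif CACGTG was found in 5 of 19 hydrolase genes, and in Lamp1 and Mcoln1 among the membrane genes. Among the 3 pump genes with a window it was found in Atp6v0d1 and Atp6v1a. The windows of Tfeb, Tfe3 and the 3 autophagy genes did not hold these letters. The 4 windows below are those of the 2 membrane genes, of the widely expressed pump subunit gene Atp6v0d1, and of Acp5 at the innermost of its 3 RefSeq starts, whose difference between groups set it apart from the other hydrolases. Capitals mark CACGTG, and each sequence reads 5′ to 3′ on the gene's own strand.
Lamp1 (chr8:13158911-13159180, plus strand): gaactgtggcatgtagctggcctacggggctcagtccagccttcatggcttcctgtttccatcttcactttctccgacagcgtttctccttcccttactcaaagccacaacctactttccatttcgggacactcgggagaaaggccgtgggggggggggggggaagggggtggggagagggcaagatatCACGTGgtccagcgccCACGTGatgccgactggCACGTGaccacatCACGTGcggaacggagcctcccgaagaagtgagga
Mcoln1 (chr8:3500269-3500538, plus strand): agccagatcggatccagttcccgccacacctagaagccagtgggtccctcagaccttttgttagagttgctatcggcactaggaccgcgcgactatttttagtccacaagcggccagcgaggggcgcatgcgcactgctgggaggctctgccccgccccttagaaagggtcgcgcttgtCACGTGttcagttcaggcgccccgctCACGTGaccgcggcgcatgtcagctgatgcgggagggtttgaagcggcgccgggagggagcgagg
Atp6v0d1 (chr8:105566045-105566314, minus strand): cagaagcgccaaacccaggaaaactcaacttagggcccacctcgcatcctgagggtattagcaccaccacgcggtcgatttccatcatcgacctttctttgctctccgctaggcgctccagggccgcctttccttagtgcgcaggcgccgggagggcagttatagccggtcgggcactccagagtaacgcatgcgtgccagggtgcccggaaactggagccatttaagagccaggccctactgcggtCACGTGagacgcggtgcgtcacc
Acp5 (chr9:22130579-22130848, minus strand): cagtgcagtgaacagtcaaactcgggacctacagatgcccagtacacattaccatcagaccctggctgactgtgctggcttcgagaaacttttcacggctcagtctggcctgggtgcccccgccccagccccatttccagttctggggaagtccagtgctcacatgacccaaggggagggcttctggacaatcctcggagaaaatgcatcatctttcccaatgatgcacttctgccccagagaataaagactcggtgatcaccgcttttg
Lamp1 held 4 copies, which began 61, 45, 28 and 15 bases before the start. Mcoln1 held 2, at 71 and 45 bases, and Atp6v0d1 held 1 that began 3 bases before the start. The innermost Acp5 window, like the windows at its other starts, held none.

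P155 and Scr were compared to ask which lysosomal and autophagy transcripts differed after treatment with the peptide. Acp5 and Atp6v0d2, a phosphatase and a pump subunit best known from osteoclasts and from some macrophages, lay about 3-fold lower in the P155 libraries. The other 35 genes differed by less than 0.5 log2 units in either direction. With limma over 27079 genes, 0 of the 37 passed at an adjusted p under 0.05 (percent of all genes called, 0%), and limma-voom on the recovered reads also called 0. At an unadjusted p under 0.05, 2 of 37 were lower, Acp5 and Atp6v0d2, against 3.18% of all genes tested, and 0 were higher, against 1.17% of all. The authors' deposited table called the same 2 genes lower at an FDR under 0.05, against 0.36% of its genes called lower, and none of the 37 higher, against 0.171%. An exact permutation test of 2 against 2 libraries cannot give a two-sided p below 0.333, so single genes were tested with limma alone.

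The median difference was -0.11, against -0.03 over all genes tested, and 23 of 37 genes were below 0, against 53.4% of all genes. For 13 of 37 genes the higher P155 library was still below the lower Scr library, against 19.6% of all genes. The reverse held for 3 of 37, against 15.2% of all. The median was thus near that of all genes, while the counts without overlap leaned more to the lower side than over all genes, with P155 replicate 5 the lowest library for 21 of the 37 genes. All 37 passed the filter on low values, and the lowest level of any of them in any library was 103 reads (Atp6v0d2 in P155 replicate 5). The median standard error of the differences was 0.20, and for 28 of the 37 genes the unadjusted 95% interval of the difference lay within 1 log2 unit of 0 on both sides.

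**Figure D1:**
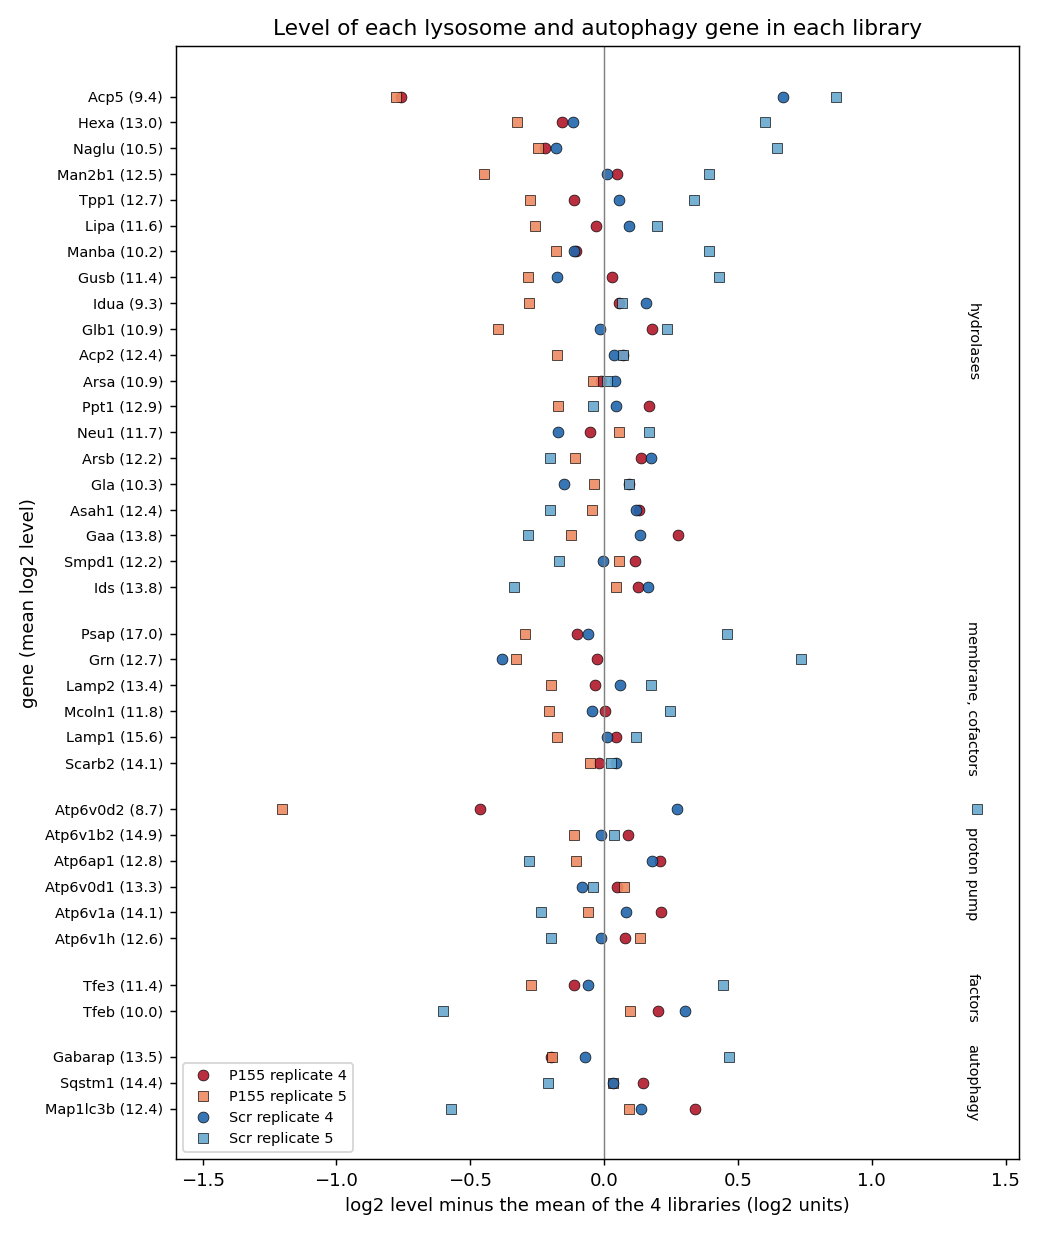
Level of each of the 37 genes in each library, as the log2 level minus the gene's mean over the 4 libraries, with that mean in brackets. Circles are replicates 4 and squares replicates 5, red and orange for P155 and dark and light blue for Scr. Acp5 and Atp6v0d2 show the P155 and Scr libraries apart, while for Hexa, Naglu, Psap and Grn only Scr replicate 5 stands far to the right.

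Acp5 encodes tartrate-resistant acid phosphatase, an enzyme secreted by osteoclasts and made by activated macrophages (ENSMUSG00000001348, chromosome 9, 22126727 to 22135711, minus strand, mm10). It had 387 and 381 normalized reads in P155 replicates 4 and 5, against 1043 and 1196 in Scr replicates 4 and 5. These rest on 459 and 226 recovered reads in P155 and on 1278 and 1418 in Scr. Both P155 libraries were low and nearly equal, and both Scr libraries were high, with no overlap. On the log2 scale the means were 8.59 ± 0.01 in P155 and 10.13 ± 0.14 in Scr (SD, n = 2 each). The difference was -1.54 (SE 0.20, 95% interval -2.05 to -1.02, limma unadjusted p = 0.000757, adjusted p = 0.861), so Scr exceeded P155 by 2.90-fold. Without each library in turn the difference ranged from -1.64 to -1.44. The authors' deposited table gives Acp5 an FDR of 9.45e-12 by a test that it does not name. An antisense gene, 6530413G14Rik, covers 137 of the 2030 exon bases of Acp5. Such overlap was annotated for 12 of the 37 genes and was largest in Arsb, at 2411 of 6037 bases. The use of strand in counting is not given in the sources used here.

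Acp5 was the only one of the 20 hydrolase genes with an unadjusted p under 0.05. The lysosomal membrane phosphatase gene Acp2, which removes phosphate in the same compartment, was at 12.47 and 12.23 in P155 and at 12.44 and 12.47 in Scr. Tpp1, a peptidase lost in a childhood form of neuronal ceroid lipofuscinosis, was at 12.56 and 12.40 in P155 and at 12.73 and 13.01 in Scr, a difference of -0.39 (SE 0.17, limma adjusted p = 0.861). Lipa, the acid lipase that frees cholesterol from its esters, was at 11.56 and 11.33 in P155 and at 11.68 and 11.79 in Scr. Both genes were lower in both P155 libraries, by less than in Acp5, and neither passed the test.

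In Hexa and Naglu the groups were set apart mainly by Scr replicate 5. Hexa, the alpha chain of beta-hexosaminidase, was at 12.86 and 12.69 in P155 and at 12.90 and 13.62 in Scr. Scr replicate 4 lay just above P155 replicate 4, so the groups did not overlap but nearly met, and without Scr replicate 5 the difference of -0.49 shrank to -0.13. Man2b1, an alpha-mannosidase, was at 12.52 and 12.02 in P155 and at 12.49 and 12.87 in Scr, with overlapping groups. Its difference of -0.40 shrank to -0.16 without P155 replicate 5 and to -0.21 without Scr replicate 5. Naglu, which acts on heparan sulfate, had the same shape as Hexa, with 10.25 and 10.22 in P155 and 10.28 and 11.11 in Scr. Scr replicate 5 was the highest library for 10 of the 20 hydrolase genes, and P155 replicate 5, the shallowest, was the lowest for 13.

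Apart from Acp5, Tpp1, Lipa, Hexa and Man2b1, 15 hydrolase genes had differences between -0.47 (Naglu) and 0.17 (Ids), 8 below 0 and 7 above, with a median of -0.002. Their spread over the 4 libraries, highest minus lowest, ran from 0.08 (Arsa) to 0.89 (Naglu) on the log2 scale. Arsa, an arylsulfatase that degrades the myelin lipid sulfatide, was at 10.90 and 10.87 in P155 and at 10.95 and 10.92 in Scr, and the difference of -0.05 had a 95% interval of -0.45 to 0.34. Smpd1, the acid sphingomyelinase gene, was slightly higher in both P155 libraries, at 12.27 and 12.21, against 12.15 and 11.98 in Scr (95% interval -0.22 to 0.57). Asah1, the acid ceramidase gene, and Gla, the alpha-galactosidase gene, overlapped between groups.

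Membrane proteins and cofactors all had differences below 0, and none passed the test. Lamp2 encodes a heavily glycosylated membrane protein, 1 of whose isoforms is the receptor to which HSC70 brings its clients (ENSMUSG00000016534, chromosome X, 38401357 to 38456454, minus strand). It stood at 13.40 and 13.24 in P155 and at 13.50 and 13.61 in Scr. The P155 libraries lay below the Scr libraries without overlap, by a small amount. The difference was -0.23 (SE 0.15, 95% interval -0.64 to 0.17, limma adjusted p = 0.861). The table has 1 value per gene, so the LAMP2A isoform was not measured apart from the others.

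Lamp1, the companion glycoprotein of the lysosomal membrane, was at 15.61 and 15.39 in P155 and at 15.58 and 15.69 in Scr, with overlapping groups and a difference of -0.13 (95% interval -0.59 to 0.33). Hspa8, which encodes HSC70 and is no member of the group, was at 16.29 in both P155 libraries and 15.97 in both Scr libraries, a difference of 0.32 (limma adjusted p = 0.861). Lamp2 and its HSC70 partner thus lay on opposite sides of 0, each within the limits of the test. Per kilobase of exon, Lamp1 averaged 17391 normalized reads in P155 and 19001 in Scr, and Lamp2 averaged 1074 in P155 and 1261 in Scr.

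Psap, the precursor of the saposins that present sphingolipids to their hydrolases, had the highest level per kilobase of the 37 genes, 41267 normalized reads in P155 and 55101 in Scr. It stood at 16.88 and 16.69 in P155 and at 16.92 and 17.44 in Scr, where Scr replicate 5 was the library that stood apart. Without it the Psap difference of -0.40 shrank to -0.14. Grn, the gene of progranulin, was at 12.70 and 12.40 in P155 and at 12.35 and 13.46 in Scr, so that the lowest and the highest library were both Scr. Without Scr replicate 5 its difference turned to 0.21. Mcoln1, the calcium channel of the lysosomal membrane, was at 11.76 and 11.55 in P155 and at 11.71 and 12.003 in Scr. Scarb2, the receptor that sorts glucocerebrosidase to lysosomes, varied little, at 14.04 and 14.01 in P155 and at 14.11 and 14.09 in Scr (95% interval -0.44 to 0.30).

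In the proton pump the alternative d subunits differed. Atp6v0d2 encodes d2, an isoform of the membrane sector with a narrow distribution that includes osteoclasts, macrophages and kidney (ENSMUSG00000028238, chromosome 4, 19876841 to 19922605, minus strand). It had 291 and 174 normalized reads in P155 replicates 4 and 5, against 485 and 1056 in Scr replicates 4 and 5. The groups did not overlap, and Scr replicate 5 was more than 2-fold above the other Scr library. On the log2 scale the means were 7.82 ± 0.52 in P155 and 9.49 ± 0.79 in Scr (SD, n = 2 each), a difference of -1.67 (SE 0.49, 95% interval -2.95 to -0.38, limma unadjusted p = 0.0214, adjusted p = 0.861). The difference was -1.11 without Scr replicate 5 and -1.30 without P155 replicate 5, where its unadjusted p was 0.151 and 0.105. Without P155 replicate 4 it was -2.04 and without Scr replicate 4 it was -2.23. The authors' deposited table gives it an FDR of 0.0294.

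Atp6v0d1 encodes d1, the isoform found in most cells (ENSMUSG00000013160, chromosome 8, 105524465 to 105566047, minus strand). It stood at 13.39 and 13.42 in P155 and at 13.26 and 13.30 in Scr, slightly higher in both P155 libraries (difference 0.12, 95% interval -0.24 to 0.49, limma adjusted p = 0.878). Per kilobase of exon, d2 made up 1.75% and 1.04% of the d1 and d2 normalized reads in P155 replicates 4 and 5, against 3.16% and 6.45% in Scr replicates 4 and 5. The d2 share was thus lower in both P155 libraries, and d1 supplied over 90% of d subunit reads in every library.

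**Figure D2:**
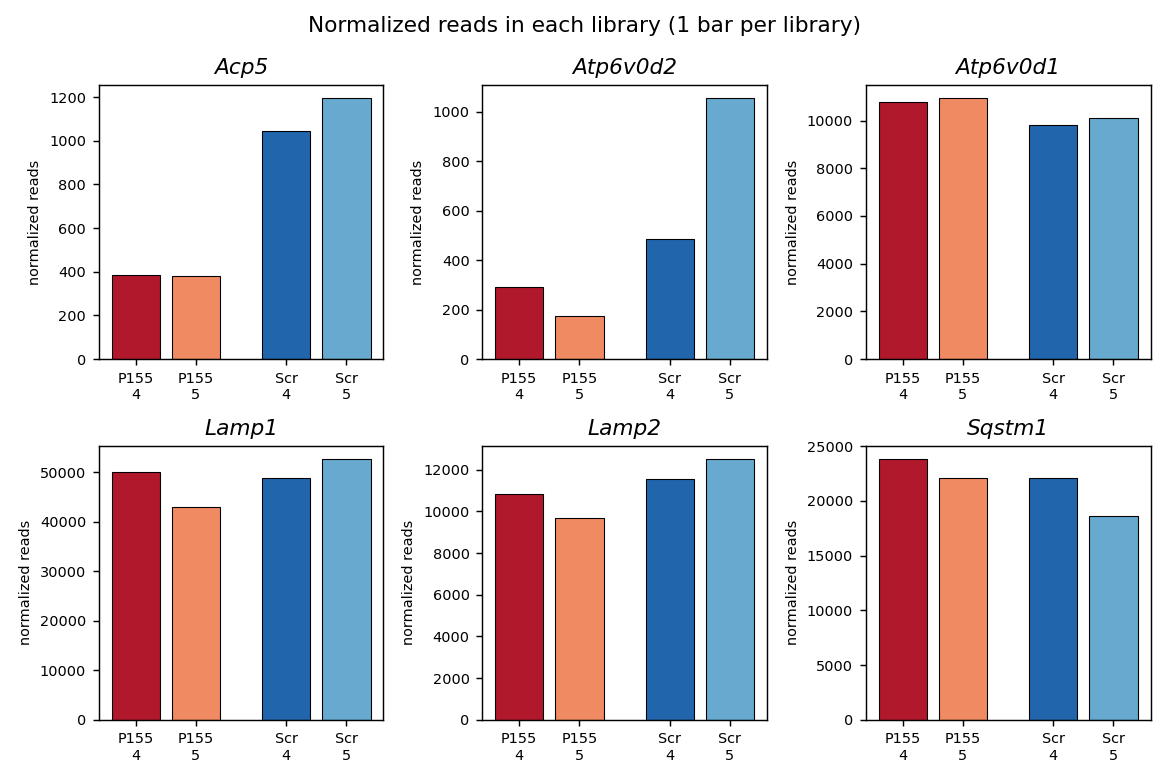
Normalized reads of 6 genes, 1 bar per library, P155 in red and orange and Scr in dark and light blue, each panel with its own axis from 0. Acp5 and Atp6v0d2 are lower in both P155 libraries, while the bars of Atp6v0d1, Lamp1, Lamp2 and Sqstm1 differ far less between libraries.

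The other 4 pump subunits among the 37 genes followed d1 rather than d2 in size of difference. Atp6v1a, the catalytic subunit, was at 14.34 and 14.07 in P155 and at 14.21 and 13.89 in Scr. Atp6v1b2, its partner in the nucleotide-binding ring, was at 14.96 and 14.76 in P155 and at 14.86 and 14.91 in Scr. Atp6v1h, a regulatory subunit, was higher in both P155 libraries, at 12.70 and 12.75, against 12.61 and 12.42 in Scr (difference 0.21, SE 0.15). Atp6ap1, an accessory protein of pump assembly, overlapped between groups at 13.04 and 12.73 in P155 and at 13.01 and 12.55 in Scr. These 4 genes had limma adjusted p between 0.861 and 0.988.

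Tfeb and Tfe3 encode related transcription factors that enter the nucleus when nutrients or lysosomal function fall short. Tfeb stood at 10.20 and 10.09 in P155 and at 10.30 and 9.39 in Scr, and Tfe3 at 11.27 and 11.11 in P155 and at 11.32 and 11.83 in Scr. In both genes Scr replicate 5 was the library farthest from the rest, low for Tfeb and high for Tfe3. The differences were 0.30 for Tfeb (SE 0.34, limma adjusted p = 0.881) and -0.38 for Tfe3 (SE 0.23, limma adjusted p = 0.861). Without Scr replicate 5 the Tfeb difference turned to -0.16 and that of Tfe3 shrank to -0.13. The factors are regulated largely by their place in the cell, which RNA does not show.

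Genes with and without the CACGTG palindrome in their promoter window had overlapping ranges of difference, and the sets were not tested against each other. Atp6v0d2, Atp6v1b2, Atp6v1h and Asah1 had no window and are in neither set. The 9 genes with the palindrome had a median difference of -0.05, ranging from -0.47 to 0.15. The 24 genes with a promoter window and without the palindrome had a median of -0.23, ranging from -1.54 to 0.43. Below 0 were 5 of the 9 and 16 of the 24.

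Of the 3 autophagy genes, 2 had a difference above 0 and 1 below. Sqstm1 encodes p62, which carries ubiquitin-tagged cargo into autophagosomes, and stood at 14.54 and 14.43 in P155 and at 14.43 and 14.19 in Scr (difference 0.18, SE 0.17). Map1lc3b encodes LC3B, the lipid-anchored protein of the autophagosome membrane, and stood at 12.76 and 12.51 in P155 and at 12.55 and 11.84 in Scr (difference 0.43, SE 0.28). Gabarap, of the same protein family, stood at 13.25 and 13.26 in P155 and at 13.38 and 13.92 in Scr (difference -0.39, SE 0.22). Scr replicate 5 was the lowest library for Sqstm1 and Map1lc3b and the highest for Gabarap. Without it the differences shrank to 0.06 for Sqstm1, 0.08 for Map1lc3b and -0.12 for Gabarap. With all 4 libraries limma adjusted p was 0.861 to 0.864 for the 3 genes.

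**Figure D3:**
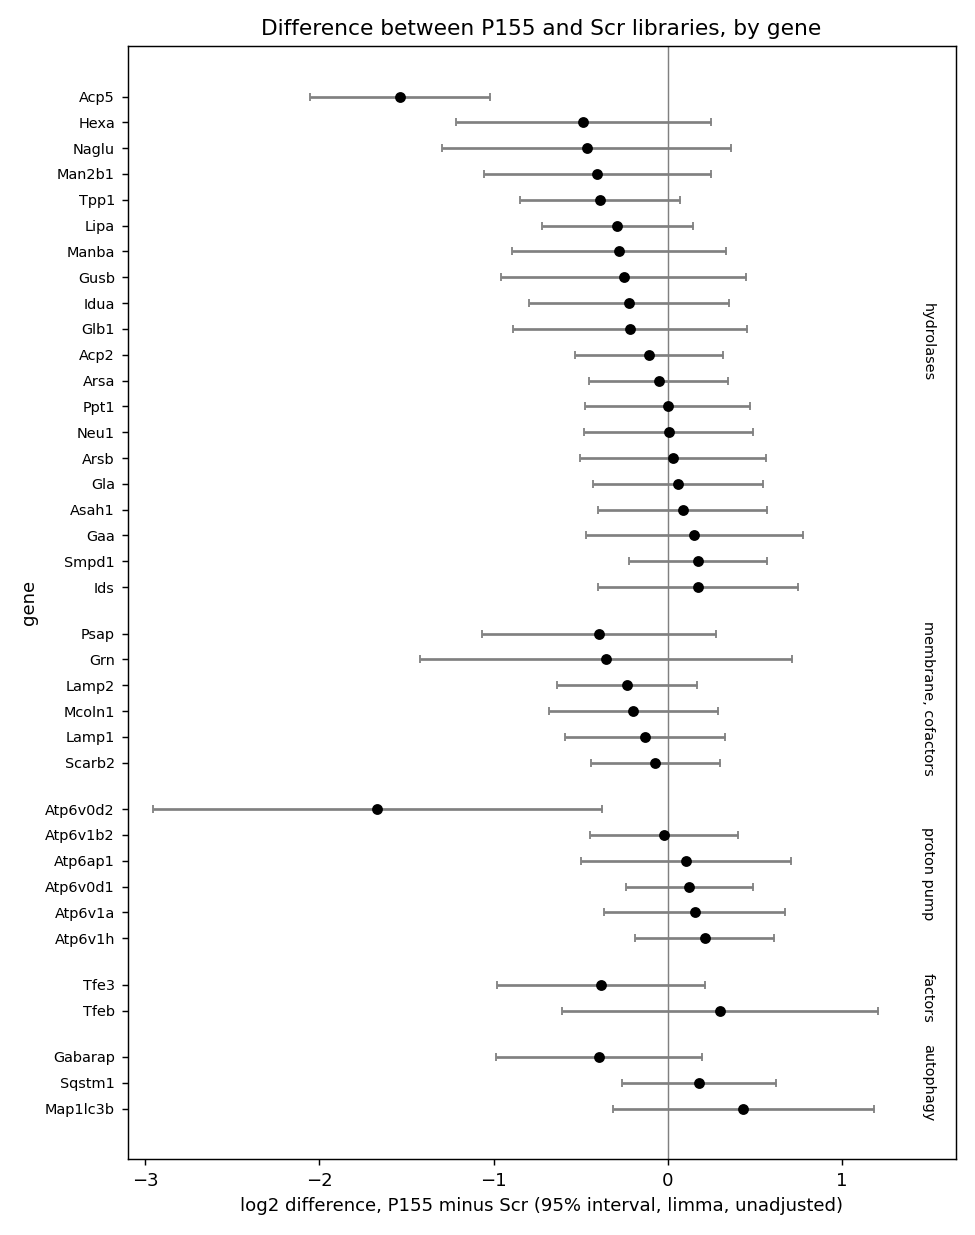
Log2 difference, P155 minus Scr, of each of the 37 genes with its unadjusted 95% interval from limma over 4 libraries. The intervals of Acp5 and Atp6v0d2 lie below 0 and those of the other 35 genes include 0. No gene passed adjustment over all genes.

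Further genes of the same pathways were looked at as 5 lists and gave no call either. Of 101 of them measured, Hspa8 included, 0 passed limma, 0 were lower and 2 higher at an unadjusted p under 0.05, against 3.18% lower and 1.17% higher over all genes. The median difference was -0.003. Of 14 other pump subunit genes, 7 were lower and 7 higher. Tcirg1, the a3 subunit of osteoclast and phagocyte pumps, was at 11.75 and 11.25 in P155 and at 12.004 and 13.23 in Scr, a difference of -1.11 (SE 0.46, limma adjusted p = 0.861). Atp6v1g2, a neuronal pump subunit, was at 13.58 and 11.37 in P155 and at 11.37 and 11.02 in Scr, where P155 replicate 4 alone stood apart.

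Of 20 other hydrolases and processing enzymes, 14 were lower and 6 higher. Nagpa, which uncovers the mannose 6-phosphate tag that sends hydrolases to lysosomes, was higher in both P155 libraries, at 9.92 and 9.55, against 9.08 and 8.53 in Scr (difference 0.93, SE 0.29, limma adjusted p = 0.861). Dnase2a, the acid DNase of phagocytes, was at 10.89 and 10.48 in P155 and at 11.06 and 12.08 in Scr. Of 20 further membrane and transport genes, 12 were lower and 8 higher. Tpcn2, a lysosomal ion channel, was at 8.94 and 9.13 in P155 and at 9.45 and 10.36 in Scr, and Laptm5, a leukocyte lysosomal protein that is also on the pan-leukocyte list, at 13.02 and 12.32 in P155 and at 13.16 and 14.00 in Scr.

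Of 16 genes of nutrient sensing and TFEB control, 9 were lower and 7 higher. Rragd, a Rag GTPase that holds mTORC1 and TFEB at the lysosome, was higher in both P155 libraries, at 11.70 and 11.63, against 11.23 and 11.22 in Scr (difference 0.44, SE 0.15, limma adjusted p = 0.861). Flcn, its folliculin partner, was at 10.86 and 11.64 in P155 and at 11.76 and 12.28 in Scr. Of 30 other autophagy genes, 12 were lower and 18 higher, with a median of 0.07. Rb1cc1, a scaffold of the initiating kinase complex, was at 11.39 and 11.73 in P155 and at 11.32 and 10.65 in Scr, and the lipid kinase gene Pik3c3 at 11.51 and 11.37 in P155 and at 11.28 and 10.94 in Scr.

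Markers of myeloid cells and of other leukocytes mostly differed between the libraries in the same direction as Acp5 and Atp6v0d2. The list of osteoclast-like and foamy macrophage markers held 7 genes besides these, of which 6 were lower, with a median of -0.57 and no call by limma. Of the 7, 3 were lower without overlap of the groups, against 19.6% of all genes, 1 was higher without overlap and 3 overlapped. Their summed level was 13.75 and 12.91 in P155 and 13.72 and 14.81 in Scr on the log2 scale, so the groups overlapped. Most of that sum came from Gpnmb, at 13.51 and 12.25 in P155 and at 13.12 and 14.67 in Scr. Ctsk, a collagen-degrading protease, was at 9.65 and 9.95 in P155 and at 10.44 and 10.30 in Scr. Ocstamp, a fusion protein of osteoclasts, was listed at 0 in both P155 libraries and had 17 recovered reads in each Scr library. Its relative Dcstamp had a low level, at 4.29 and 5.38 in P155 and at 5.21 and 5.67 in Scr, and Calcr was on the other side of 0, at 4.52 and 4.16 in P155 and at 3.89 and 3.48 in Scr.

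Of 9 markers of infiltrating monocytes and macrophages, 9 were lower, with a median of -0.81. For 5 of the 9 the P155 libraries lay below the Scr libraries without overlap, against 19.6% of all genes. The summed level of the 9 was 14.10 and 13.75 in P155, against 14.39 and 14.14 in Scr. Fn1 was the largest part of that sum in each library, and it overlapped between groups with a difference of only -0.005. Of 8 microglia markers, 7 were lower (median -0.56, summed level 14.78 and 14.65 in P155 and 14.92 and 15.50 in Scr). All 6 pan-leukocyte genes were lower (median -0.85, summed level 14.47 and 13.91 in P155 and 14.63 and 15.37 in Scr), and no defining marker of these 3 lists was at 0 in any library. Of 8 neuron markers, 7 were higher, with a median of 0.27 and a summed level of 18.69 and 18.50 in P155, against 18.50 and 18.11 in Scr. Other immune markers lay lower as well, with 7 of 7 B cell genes (median -1.47) and 8 of 8 T cell genes (median -0.81). So did 8 of 8 neutrophil genes (median -1.36) and 6 of 6 endothelial genes (median -0.23). All 7 B cell genes were lower without overlap of the groups, against 19.6% of all genes. By limma, 6 of these 7 were lower at an unadjusted p under 0.05, against 3.18% of all genes. The authors' deposited table called 4 of them lower, against 0.36% of its genes. For all 8 neutrophil genes Scr replicate 4 was the highest library and P155 replicate 4 the lowest. For 7 of the 8 the groups overlapped. Oligodendrocyte and astrocyte markers had medians of 0.07 and 0.01. The part of these markers in the results for Acp5, Atp6v0d2 and the genes highest in Scr replicate 5 was not tested.

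Across the 37 genes, Scr replicate 5 was the highest library for 18 and the lowest for 11, and P155 replicate 5 was the lowest for 21. Over all genes tested, Scr replicate 5 was highest for 34.7% and P155 replicate 5 lowest for 32.2%. The number of the 37 at an unadjusted p under 0.05 followed the libraries used. It was 1 without Scr replicate 5 or without P155 replicate 5, 2 without P155 replicate 4 and 11 without Scr replicate 4, of which 8 were lower and 3 higher. The share of all genes at the same p moved too, to 3.85% without Scr replicate 5, 2.89% without P155 replicate 5, 8.18% without P155 replicate 4 and 12.1% without Scr replicate 4. Acp5 was among them each time.

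**Figure D4:**
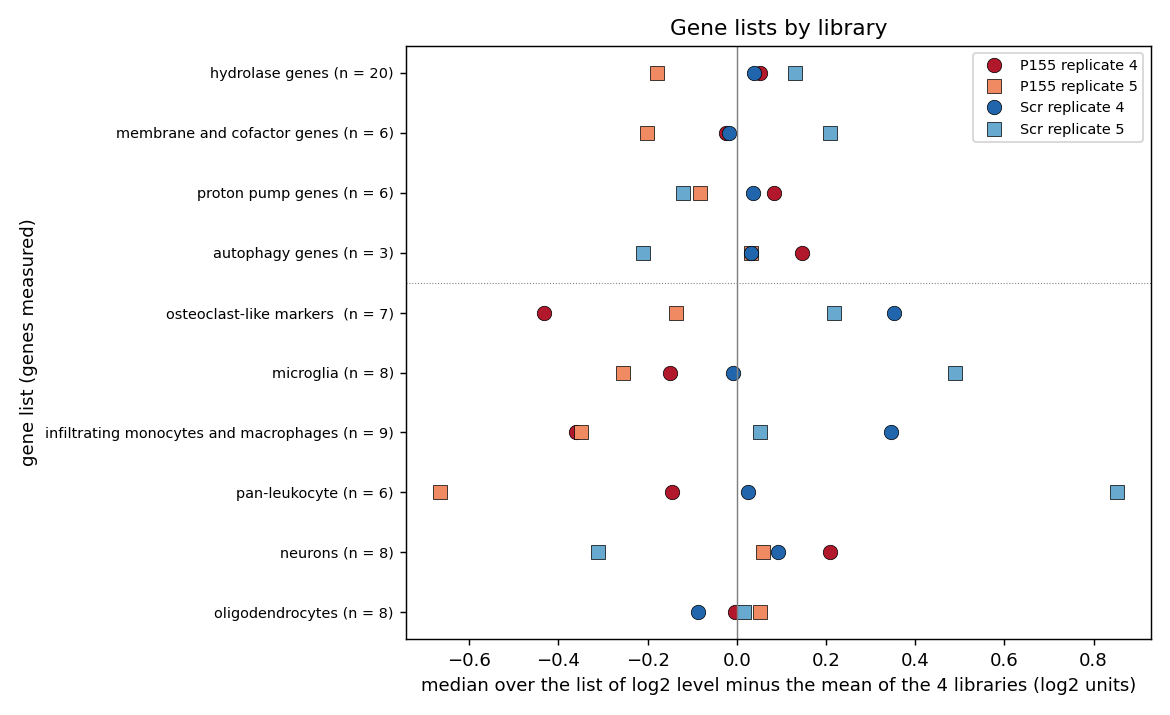
Median over each gene list of the log2 level minus the gene's mean over the 4 libraries, 1 symbol per library, with the lysosome and autophagy classes above the dotted line and cell type markers below it. Scr replicate 5 is highest for hydrolase, membrane, microglia and pan-leukocyte genes and lowest for pump, autophagy and neuron genes.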

How the data were processed

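Messenger RNA was captured on oligo(dT) beads and sequenced on an Illumina machine, as the labels' protocols state. The submitters' processing notes name bcl2fastq, STAR 2.5.3a, DESeq2 and genome build mm10. Read counter, annotation and strand setting are not stated there. The authors deposited log2 values per library, a log2 fold change, and the p-value and FDR of an unnamed test. After undoing the log2 and the added 1, 100% of values were whole multiples of 1 step per library (relative tolerance 1e-06), which gave back the reads. P155 replicate 5 was the shallowest library and has the largest counting error.

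The 27079 genes that reached a normalized value of 1 in 2 or more libraries were tested with limma 3.58.1 (R 4.3.3), two-sided, allowing the variance to follow the mean level, with Benjamini-Hochberg adjustment over all of them at 0.05. The edgeR test foreseen for raw counts was not used, since the deposited values are log2, although the recovered reads could have served for it. Of tests on the recovered reads, limma-voom was run, as an alternative. Because of the added 1, log2 differences of low genes come out too small. The fit was tested on simulated data. Exon lengths and coordinates are from GENCODE M21 (mm10), which held 32168 of the 32246 identifiers, and promoters are from RefSeq. The genes and lists were chosen with earlier results of these data known. Library values are given for Lamp1, Lamp2, Tfeb, Tfe3, Acp5, both d subunits and the autophagy genes, for up to 4 more of each larger class and 2 of each further list by smallest p, and for Hspa8. Acp2, Naglu, Arsa, Smpd1 and the markers named singly were chosen after their values were seen. Atp6v1b1, on the list of other pump subunits, was not analysed here. Alternatives are listed in the closing section.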

Additional observations from a re-analysis of the deposited data

How the results depend on the processing

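The counts of 0 genes called over all genes and of 0 among the 37 were the same under all 12 alternatives: a pseudocount of 0.1, no filter, a filter at a mean of 50, scaling by library size, a robust variance prior, no variance trend, limma-voom on recovered reads, the replicate number as a block, and each library left out. The median difference of the 37 genes ranged from -0.23 to -0.0399 when a library was left out, and their number at an unadjusted p under 0.05 from 1 to 11. Of the 22 genes named by rule, none changed sign in the alternatives that kept all 4 libraries. Acp2, Naglu, Arsa and Smpd1 were refitted with all other genes but were left out of this check of signs. With a library left out, Tfeb ranged from -0.16 to 0.75, Grn from -0.91 to 0.21, Atp6v1a from -0.005 to 0.313, Atp6ap1 from -0.13 to 0.33 and Atp6v1b2 from -0.13 to 0.08, each changing sign in at least 1 case. The cause was not tested.

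The labels do not say what the numbers 4 and 5 stand for, and deviations of same-numbered libraries from their group means had a correlation of 0.07 across genes. With the replicate block, 0 genes were called and Acp5 had an adjusted p of 0.746 by limma. A lone library left in an arm was assumed to vary like the other arm. With 2 libraries per group, differences of the size seen in most of the 37 genes could not be told from 0.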

Other observations

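Some lysosome and autophagy genes outside the 37 had 1 library far from the others, and they were chosen after their values were seen. Sgsh, a sulfatase of heparan sulfate breakdown, was at 10.04 and 9.81 in P155 replicates 4 and 5 and at 10.10 and 5.89 in Scr replicates 4 and 5. Uvrag, a partner of the autophagy lipid kinase, was at 11.18 and 10.94 in P155 and at 11.13 and 9.02 in Scr. In both genes Scr replicate 5 was the low library.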
